A study of Mus musculus with 15 samples.

Results

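The genes described here are 36 nuclear receptor genes, taken by symbol from the 24499 genes listed for each of 15 mouse liver libraries, with no measured value used in the choice. Nuclear receptors are transcription factors, many of which are switched on by small fat-soluble molecules such as bile acids, fatty acids, oxysterols, retinoids, drugs, and steroid and thyroid hormones. Most of them bind DNA at short repeated motifs, often as a pair with a retinoid X receptor, and an orphan member has no settled ligand. In the liver they set the expression of genes for drug clearance, bile acid synthesis, fat oxidation, cholesterol export and the daily rhythm of metabolism.

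The livers came from adult male C57BL/6 mice in a model that adds alcohol to a carbon tetrachloride (CCl4) injury. CCl4, a solvent that hepatocytes turn into a toxic radical, was injected into the peritoneum 2 times weekly at 0.2 ml/kg over 6 weeks, and the arm without it is named OO in the labels, which do not spell the name out. At day 0, before any ethanol, there were 2 OO libraries (numbered 1 and 2) and 2 CCl4 libraries (3 and 4). In the second phase ethanol of up to 25 g/kg per day was infused through a gastric tube over 3 weeks, and the day 20 CCl4 arms went on with CCl4 at 0.5 of the first dose. The day 20 groups were OO with chow (library 12), OO with ethanol (13, 14 and 15), CCl4 with chow (16 and 17) and CCl4 with ethanol (18, 19 and 20). A day 23 substudy gave 1 OO library with chow (5) and 1 OO library with ethanol (6), for which the labels do not repeat OO in the second phase. The labels pair ethanol with a high-fat diet, so ethanol and diet cannot be told apart in any comparison here.

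Libraries held 10347844 to 28843258 counts assigned to genes. A level in CPM is the count scaled by TMM to a common library size, and a level per kilobase divides it by the summed exon length so that genes can be set side by side. Whether each library is a different animal is not stated in the labels, and the p-values reflect only how much these libraries vary. Hepatocyte markers summed to between 69937 and 108564 CPM in every library. Markers of the exocrine pancreas, a tissue next to the liver, summed to 175 CPM in library 12 and 172 CPM in library 6 and to between 5.52 and 14.0 CPM elsewhere, so member calls that rest on library 12, and the target counts of ethanol in OO livers, are also given without it. Without library 12 the number of all genes called went from 776 to 93 for ethanol in OO livers and from 17 to 10 for the interaction. In whole liver, fewer cells of a type and less RNA per cell cannot be told apart.

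Receptors of fatty acids, bile acids and oxysterols and their partner RXR alpha had the highest levels. Ppara, the fatty acid receptor that switches on fat oxidation, led with a median level of 71.2 per kilobase over the 15 libraries, followed by the bile acid receptor FXR (Nr1h4) at 61.8, the common partner RXR alpha (Rxra) at 57.8 and the oxysterol receptor LXR alpha (Nr1h3) at 41.2. Their ranges overlapped widely: Ppara ran from 39.9 to 134, Nr1h4 from 49.5 to 84.7 and Rxra from 35.4 to 107, so the order of these 3 is not beyond the spread between libraries. The small heterodimer partner SHP (Nr0b2), a repressor without a DNA-binding domain that FXR induces, had a median level of 36.6 per kilobase and ranged from 11.9 to 72.9. The drug sensors PXR (Nr1i2) and CAR (Nr1i3) stood at medians of 25.1 and 11.1. CAR, which 4 receptors outside these classes exceeded, had the wider range, from 7.26 to 35.7. Of the 4414 exon bases that the CAR level is divided by, 3304 are shared with Tomm40l, a gene on the opposite strand. The rank of CAR therefore depends on the exon length used and is uncertain.

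The glucocorticoid receptor gene Nr3c1 had a median of 21.0 per kilobase with a narrow range from 16.2 to 24.3. The clock repressor gene Nr1d2 stood at 17.5, the orphan receptor gene Nr2f6 at 16.7 and Nr5a2, which encodes the bile acid synthesis regulator LRH-1, at 12.4, so these 4 medians lay above that of CAR. The estrogen receptor gene Esr1 stood at 3.92 and the mineralocorticoid receptor gene Nr3c2 at 4.09, near the fat cell receptor Pparg at 2.74. In the 2-member thyroid hormone receptor family Thrb, the main hepatic form, was at 7.32 and Thra at 2.35. Among the PPARs the third member, Ppard, was low at 0.382. The estrogen-related receptor gene Esrra was at 4.53 while its relative Esrrg was at 0.0887.

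The remaining 4 members were too sparse to test. The vitamin D receptor gene Vdr had 0 to 7 counts per library, the orphan receptor gene Nr2f1 2 to 15, and the immediate early orphan receptor genes Nr4a2 and Nr4a3 0 to 8 each. Vdr, Nr4a2 and Nr4a3 were at 0 in 3 libraries each. The other 32 members passed the filter on low counts and were tested with 14778 genes in all. Esrrg passed only through its OO libraries, so a difference against CCl4 was built into its passing, and its values are given as a description.

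**Figure D1:**
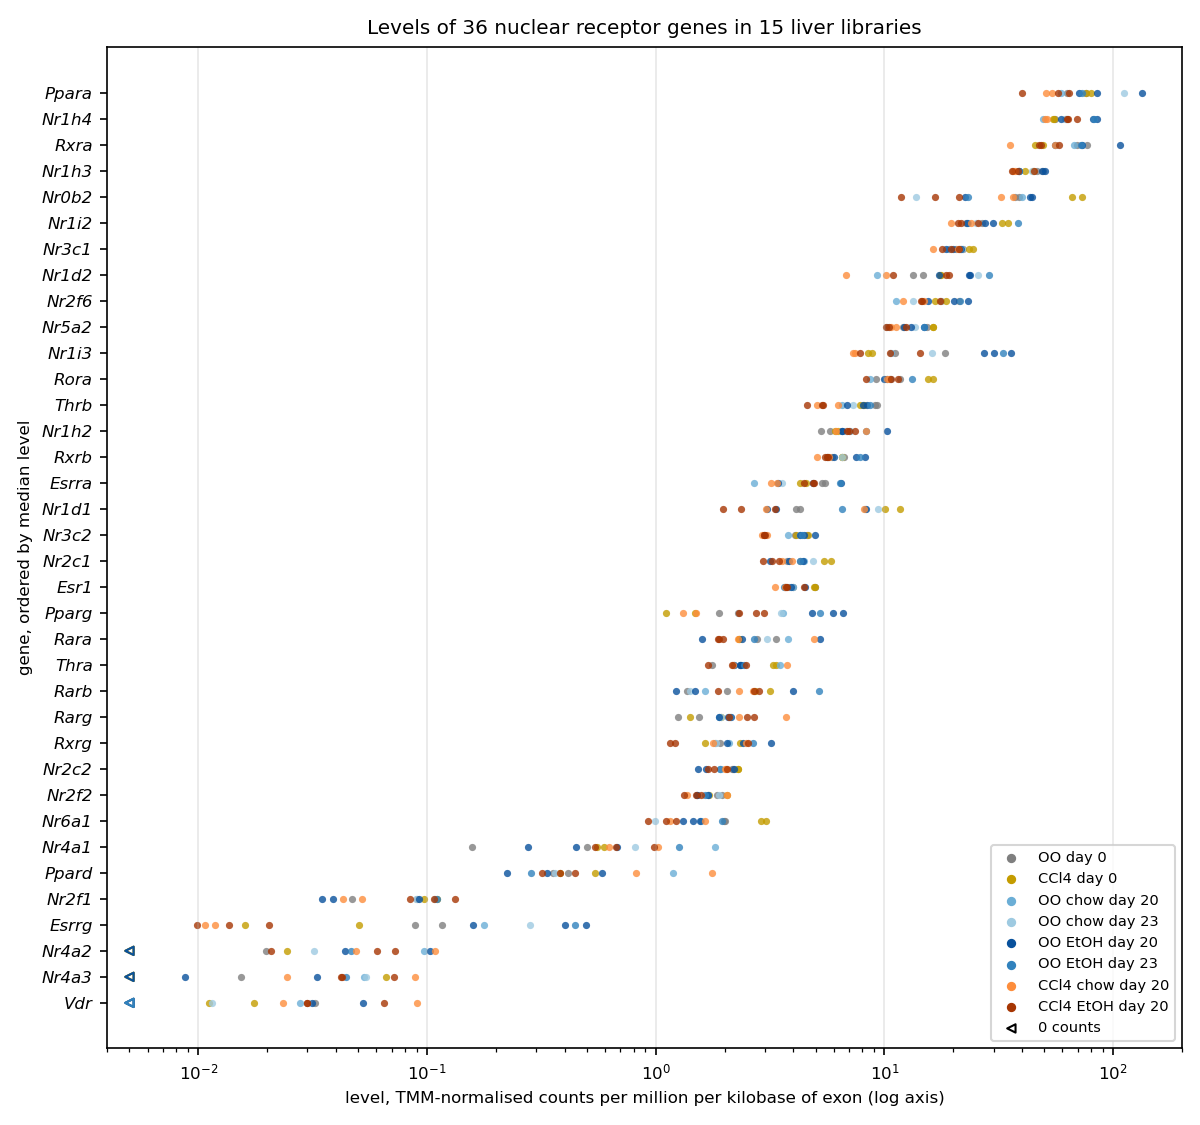
Level of each of the 36 receptor genes, as TMM-normalised CPM per kilobase of exon on a log axis, with 1 point per library coloured by group and open triangles for libraries at 0 counts. Ppara, Nr1h4 and Rxra lie highest with overlapping ranges, and Vdr, Nr4a3, Nr4a2, Esrrg and Nr2f1 lie lowest.

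A gene is called here when edgeR's quasi-likelihood test gave it a p under 0.05 after Benjamini-Hochberg adjustment over all 14778 genes. Over 7 comparisons 9 members were called at least once: Nr1i3, Nr0b2, Ppara, Pparg, Thrb, Nr3c2, Esrrg, Nr1d1 and Nr2c1. Esrrg is counted among them although its passing of the filter rested on its OO libraries. To show what their start regions hold, windows of 300 bases, from 250 before to 50 after a transcript's start, were taken from RefSeq on GRCm38.p6. They were searched on both strands for the core receptor motif AGGTCA and for the E-box CACGTG, a palindrome bound by clock factors, and matches of the 2 motifs could share letters. Windows were found for 34 of the 36 members, 52 in all. The receptor motif was in 11 of them (21.2%) and in 16.3% of all 32851 windows, and the E-box was in 5 (9.62%) and in 7.15% of all windows. Of 15 windows of the called genes 6 held either motif, and these are printed 5′ to 3′ in lower case with the motif in capitals. A match is a string of letters and no measured binding site.

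Nr1i3 promoter, chr1:171213720-171214019, plus strand: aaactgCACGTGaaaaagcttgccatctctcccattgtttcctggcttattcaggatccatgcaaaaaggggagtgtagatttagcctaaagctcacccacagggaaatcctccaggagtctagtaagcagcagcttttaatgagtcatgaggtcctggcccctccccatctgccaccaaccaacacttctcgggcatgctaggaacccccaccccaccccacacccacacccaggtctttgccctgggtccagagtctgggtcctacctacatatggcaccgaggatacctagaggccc
Nr0b2 promoter, chr4:133553126-133553425, plus strand: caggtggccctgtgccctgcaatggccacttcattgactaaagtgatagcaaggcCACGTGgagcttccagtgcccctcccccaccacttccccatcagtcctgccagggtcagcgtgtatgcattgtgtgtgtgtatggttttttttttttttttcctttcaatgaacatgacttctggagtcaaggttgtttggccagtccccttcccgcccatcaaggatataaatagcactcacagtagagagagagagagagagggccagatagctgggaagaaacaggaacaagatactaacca
Pparg promoter, chr6:115360894-115361193, plus strand: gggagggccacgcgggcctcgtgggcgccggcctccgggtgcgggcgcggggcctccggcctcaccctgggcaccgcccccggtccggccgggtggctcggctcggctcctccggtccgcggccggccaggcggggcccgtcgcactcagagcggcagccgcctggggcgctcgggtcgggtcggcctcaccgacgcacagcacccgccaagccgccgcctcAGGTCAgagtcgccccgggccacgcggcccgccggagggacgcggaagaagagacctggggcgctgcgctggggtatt
Pparg promoter, chr6:115362099-115362398, plus strand: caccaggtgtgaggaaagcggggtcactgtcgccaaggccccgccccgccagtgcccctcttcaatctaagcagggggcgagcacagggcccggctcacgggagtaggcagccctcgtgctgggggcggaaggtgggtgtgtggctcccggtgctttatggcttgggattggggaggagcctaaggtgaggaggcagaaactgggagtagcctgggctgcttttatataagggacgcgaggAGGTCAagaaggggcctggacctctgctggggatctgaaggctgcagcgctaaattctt
Thrb promoter, chr14:17660710-17661009, plus strand: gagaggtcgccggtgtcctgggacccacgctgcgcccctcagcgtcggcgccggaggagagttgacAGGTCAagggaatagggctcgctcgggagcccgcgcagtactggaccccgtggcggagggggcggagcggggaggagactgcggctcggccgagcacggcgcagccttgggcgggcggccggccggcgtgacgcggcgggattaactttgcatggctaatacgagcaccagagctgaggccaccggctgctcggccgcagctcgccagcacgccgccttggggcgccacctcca
Thrb promoter, chr14:17981394-17981693, plus strand: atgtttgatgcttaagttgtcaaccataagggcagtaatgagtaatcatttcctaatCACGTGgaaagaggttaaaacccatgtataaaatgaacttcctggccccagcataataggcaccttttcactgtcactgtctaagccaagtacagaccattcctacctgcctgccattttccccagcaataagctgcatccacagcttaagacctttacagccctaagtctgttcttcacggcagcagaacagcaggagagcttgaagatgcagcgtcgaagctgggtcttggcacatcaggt

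CCl4 against OO under ethanol was the comparison in which most members were called. Of 32 members 7 were lower in the doubly injured livers and 0 were higher: Nr1i3, Nr0b2, Ppara, Pparg, Thrb, Nr3c2 and Esrrg, or 6 without Esrrg, which passed the filter through its OO libraries. Across all genes 24% were called, 12.7% higher and 11.3% lower, so calls were common in this comparison in both directions. The median log2 change of the members was -0.26, with 5 of 32 above 0, and that of all genes was -0.04. All 3 CCl4 libraries were below all 3 OO libraries for 9 members and above them for 0, against 17.4% and 18.8% of all genes.

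CAR (Nr1i3), the receptor through which phenobarbital induces drug-clearing enzymes, is at chr1:171213970-171220701 on mm10 (plus strand, like all receptor genes placed here except Nr1d1). Its level was 46.6, 63.5 and 34.4 CPM in the CCl4 ethanol libraries 18, 19 and 20, and 120, 157 and 133 CPM in the OO ethanol libraries 13, 14 and 15. The highest of the first 3 was well below the lowest of the others. The log2 change was -1.51 ± 0.24 (SE; edgeR adjusted p = 0.000894), or 2.84-fold lower with CCl4, and the call was kept in all 15 alternative settings tried. The reads of Nr1i3 and of Tomm40l, a mitochondrial import gene on the opposite strand, cannot be told apart without strand, since 74.9% of the exon bases of Nr1i3 are shared with it in the GENCODE M21 annotation. In RefSeq the spans of these genes share 1044 bases, and the annotation used for the counting is not given in the sources used here. Tomm40l was itself called lower by 1.01 on the log2 scale (edgeR adjusted p = 0.0065), so how much of the CAR value belongs to each gene was not tested.

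PPAR gamma (Pparg), the receptor of fat storage that rises in fatty liver, is at chr6:115360951-115490399. It stood at 8.82, 8.09 and 6.82 CPM in libraries 18, 19 and 20 and at 19.5, 14.3 and 17.6 CPM in libraries 13, 14 and 15. The groups did not overlap. This was a log2 change of -1.11 ± 0.17 (SE; edgeR adjusted p = 0.000751), kept in all 15 settings. Of 6 adipocyte markers 4 were tested, and Cidec (2.84 against 8.80 CPM in the mean) and Cfd (0.0842 against 1.60 CPM) were lower with CCl4 while Fabp4 (17.4 against 7.41 CPM) was higher (edgeR adjusted p = 0.0172, 0.0364 and 0.015). Adipoq, Lep and Plin1 were at 0 in all 3 CCl4 libraries. The sum over the 6 genes, 18.9 to 21.6 against 17.5 to 19.2 CPM, was mostly Fabp4 with CCl4, and the part of these markers in the Pparg level was not tested. Ppara (chr15:85734983-85802819) had 153, 245 and 220 CPM with CCl4 and 514, 273 and 326 CPM without, and library 13 was far above the other 2. Its log2 change of -0.85 ± 0.27 (SE; edgeR adjusted p = 0.0362) was lost without library 13 (adjusted p = 0.13), 15 (0.0556), 18 (0.14) or 20 (0.0752) and on only the compared arms (0.0756). Ppard stood at 3.33, 2.39 and 2.86 CPM with CCl4 and at 4.36, 2.51 and 1.68 CPM without, and was not called.

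Small heterodimer partner (Nr0b2, chr4:133553376-133556536) had 13.4, 18.8 and 23.9 CPM in libraries 18, 19 and 20 and 50.1, 25.6 and 48.96 CPM in libraries 13, 14 and 15. The lowest OO library, 14, was close to the highest CCl4 library, 20. The log2 change was -1.15 ± 0.35 (SE; edgeR adjusted p = 0.0297), and it was lost without library 13 (0.0727), 15 (0.0981), 18 (0.12) or 19 (0.0653). The FXR gene Nr1h4, whose protein induces SHP, was at 146, 145 and 159 CPM against 136, 195 and 189 CPM and was not called.

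The thyroid hormone receptor gene Thrb (chr14:17660261-18038090) stood at 34.0, 39.9 and 39.6 CPM with CCl4 and at 62.4, 59.6 and 50.6 CPM without. The mineralocorticoid receptor gene Nr3c2 (chr8:76899442-77245012) stood at 19.3, 19.4 and 19.3 CPM with CCl4 and at 28.9, 32.3 and 27.7 CPM without. Neither pair of groups overlapped, and the CCl4 libraries of Nr3c2 were nearly equal. The log2 changes were -0.61 ± 0.12 for Thrb (SE; edgeR adjusted p = 0.0034) and -0.62 ± 0.11 for Nr3c2 (SE; adjusted p = 0.0018). Both were kept in all 15 settings. The glucocorticoid receptor gene Nr3c1, a close relative of Nr3c2, had a log2 change of -0.04 and was not called.

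Estrogen-related receptor gamma (Esrrg), an orphan receptor tied to mitochondrial genes in oxidative tissues, is at chr1:187608791-188214885. It had 3, 1 and 1 counts in libraries 18, 19 and 20 and 10, 59 and 28 counts in libraries 13, 14 and 15. Every CCl4 library was near the limit of detection. Relative to the summed library sizes the OO level was 24.8 times the CCl4 level, a rough value at so few counts. Since the passing of the filter by Esrrg rested on the OO libraries, no test or interval is given for it.

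Members that did not pass included the retinoid X receptor genes Rxra and Rxrb. Rxrb was at 22.2 ± 0.368 CPM with CCl4 and 28.8 ± 4.54 CPM without (SD, n = 3; edgeR adjusted p = 0.0526), and Rxra at 280.1 ± 31.2 against 428.5 ± 143 CPM (SD, n = 3; adjusted p = 0.0614). The germ cell nuclear factor gene Nr6a1 was at 11.8 ± 1.65 against 15.7 ± 1.35 CPM (SD, n = 3; adjusted p = 0.129), and the clock repressor REV-ERB alpha gene Nr1d1 at 7.88 ± 2.16 against 15.1 ± 9.07 CPM (SD, n = 3; adjusted p = 0.113). All 4 had an unadjusted p under 0.05, as did 35.8% of all genes. When the day 23 ethanol library 6 was added to the OO arm, these 4 were called as well, giving 11 members lower, against 4151 of all genes called in that fit in place of 3546. Leaving out single libraries gave 5 to 10 calls, with Nr1i3, Pparg, Thrb and Nr3c2 among them each time.

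Markers of other cells moved with this contrast. The 8 hepatocyte markers summed to 79691 to 90666 CPM with CCl4 and to 69937 to 78216 CPM without, a sum that is mostly Alb (51395 against 36689 CPM in the mean). Of these 8 markers 1 was lower, Serpina1c at 1159 against 1773 CPM (edgeR adjusted p = 0.00926), 0 were higher, and 2 of 8 had a log2 change above 0. The 10 stellate cell and fibroblast markers summed to 1255 to 1808 against 471 to 648 CPM, with 7 called higher and 0 lower. The 10 Kupffer cell and macrophage markers summed to 1885 to 2283 against 713 to 967 CPM, with 7 called higher and 1 lower. Across all genes 12.7% were called higher and 11.3% lower. The 7 cholangiocyte markers summed to 387 to 598 against 46.4 to 75.0 CPM, with CCl4 mostly from Spp1. Spp1 reached 583 CPM in library 20, while the others of this list reached at most 10.4 CPM (Krt19) in any library. Of 6 cholangiocyte markers tested 3 were called higher and 0 lower. None of the markers in these 4 lists was at 0 in every library of either arm. Their part in the receptor levels was not tested.

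**Figure D2:**
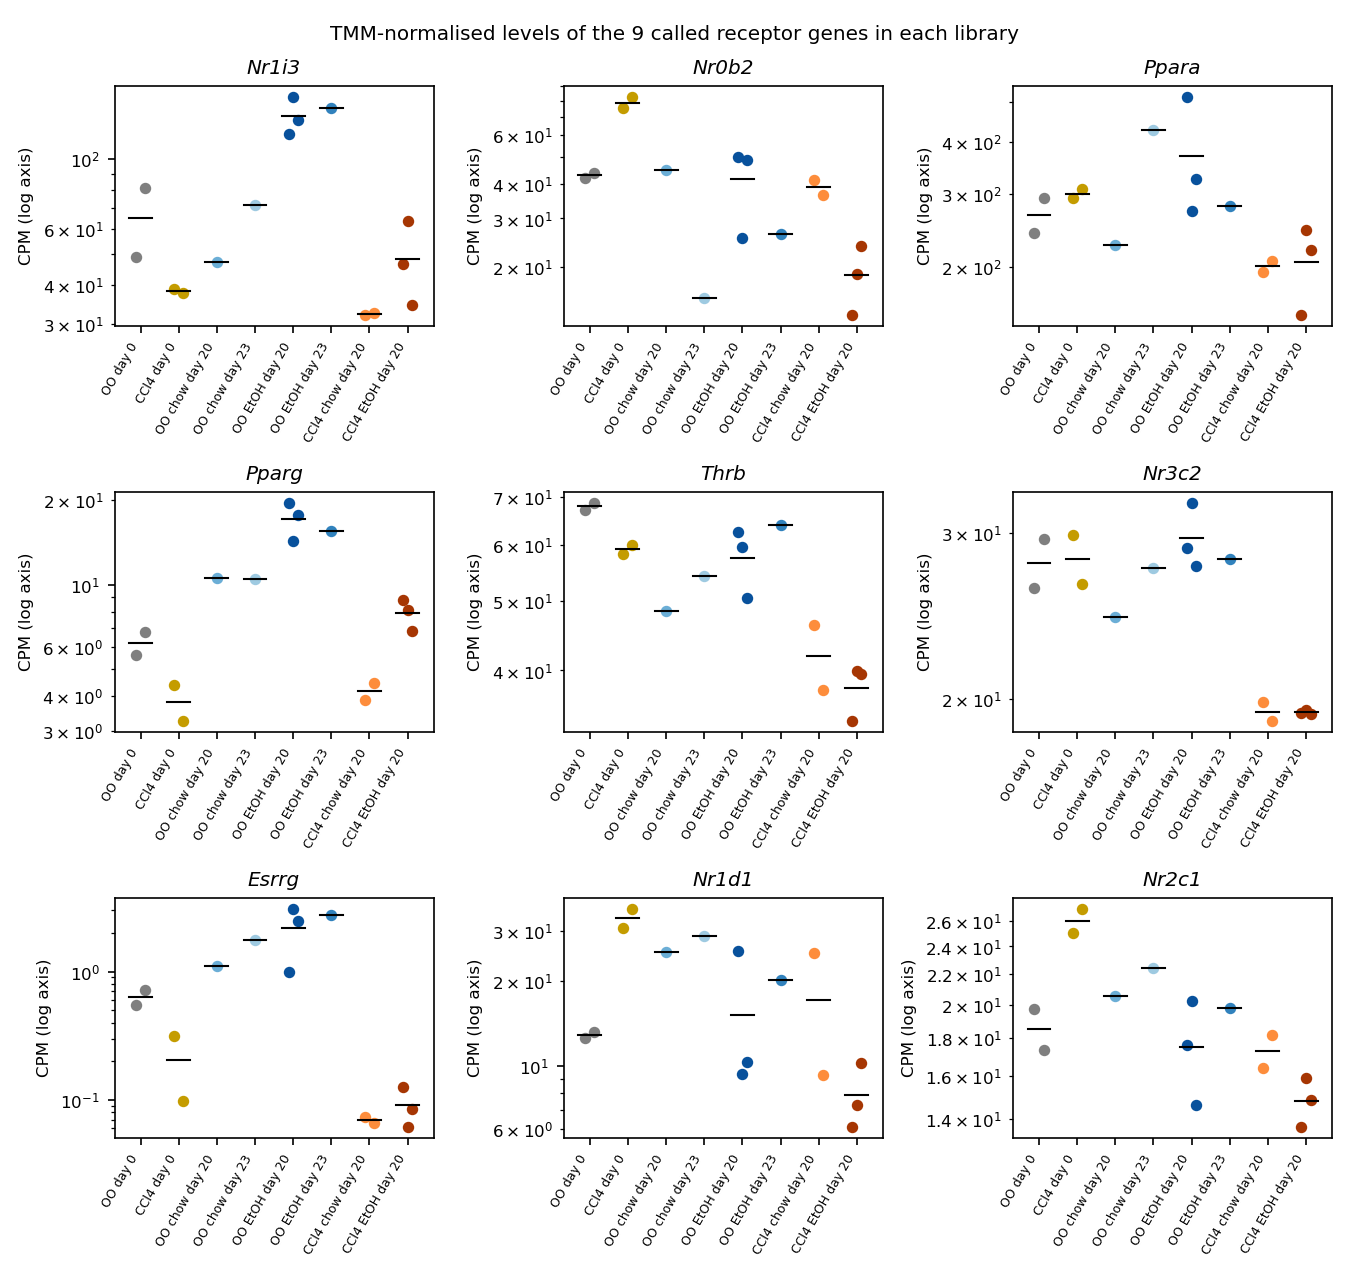
Level of the 9 called receptor genes in each library, in TMM-normalised CPM on a log axis that differs between panels, with groups along the horizontal axis, points for libraries and a bar for the group mean. In the CCl4 ethanol group Nr1i3, Pparg, Thrb, Nr3c2 and Esrrg lie below every day 20 OO ethanol library, and the CCl4 chow libraries of these genes are also low.

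The same CCl4 contrast under chow set libraries 16 and 17 against the OO chow libraries 12 and 5, which differ in day and substudy. It called 2 members, both lower, Pparg and Esrrg, or 1 without Esrrg, against 1.48% of all genes called and 0.392% called lower. Pparg stood at 3.88 and 4.45 CPM with CCl4 and at 10.6 and 10.5 CPM without, so the pairs lay far apart. This was a log2 change of -1.34 ± 0.22 (SE; edgeR adjusted p = 0.0131); it was kept without library 12 (adjusted p = 0.0385) and lost without library 5 (0.118), 16 (0.0626) or 17 (0.0987) and on only the compared arms (0.0502). Esrrg had 1 count in library 16 and 1 in library 17, against 14 in library 12 and 27 in library 5. That is a ratio of 21.0, again rough at these counts, and no test or interval is given for the reason above.

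Other members that were lower under ethanol had the same sign under chow without passing. Nr3c2 was at 19.8 and 18.9 CPM with CCl4 and at 24.4 and 27.6 CPM without (edgeR adjusted p = 0.145), and Nr1i3 was at 32.04 and 32.7 against 47.1 and 71.3 CPM (adjusted p = 0.17). The groups of both genes were apart, though the OO chow libraries of Nr1i3 differed widely. Nr0b2 went the other way, with 41.4 and 36.4 CPM with CCl4 and 45.0 and 15.5 CPM without, and the groups overlapped. The retinoic acid receptor gene Rarg was at 12.9 ± 4.23 against 8.16 ± 0.137 CPM (SD, n = 2; adjusted p = 0.205) and Rxra at 248.4 ± 78.0 against 384.1 ± 21.5 CPM (SD, n = 2; adjusted p = 0.297). Of 32 members 4 had both CCl4 libraries above and 11 had both below the OO libraries, against 22.2% and 20.6% of all genes. The stellate cell and fibroblast marker sum was 1683 to 2344 CPM with CCl4, 896 CPM in library 12 and 549 CPM in library 5, and its part here was not tested.

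Whether the CCl4 difference itself changed with ethanol was tested as an interaction, the CCl4 log2 change under ethanol minus that under chow. No member was called by edgeR, and 1 had an unadjusted p under 0.05, Nr0b2, with a difference of -1.52 ± 0.54 (SE; edgeR adjusted p = 0.44). Across all genes 0.115% were called and 8.29% had an unadjusted p under 0.05. DESeq2 and limma-voom also called 0 members. For Nr1i3 the difference was -0.63 and for Pparg 0.23 on the log2 scale, neither called, so the counts of 7 and 2 members do not show that more receptors differed with CCl4 under ethanol.

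Ethanol against chow in OO livers set libraries 13, 14 and 15 against 12 and 5. It called 1 member, Nr1i3, higher with ethanol, against 5.25% of all genes called and 3.06% called higher. CAR stood at 120, 157 and 133 CPM with ethanol and at 47.1 and 71.3 CPM with chow, and every ethanol library was above both chow libraries. The log2 change was 1.21 ± 0.27 (SE; edgeR adjusted p = 0.027), or 2.31-fold higher. The call was lost without library 12, the one with pancreas markers (adjusted p = 0.24), without library 14 (0.0705) or 15 (0.072), and on only the compared arms (0.096). The overlapping gene Tomm40l had a log2 change of 0.92 (adjusted p = 0.0585) in the same comparison.

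Another 5 members had an unadjusted p under 0.05 with ethanol in OO livers, as did 21.2% of all genes. Nr2f6, an orphan receptor of the COUP-TF group, was at 46.1, 59.9 and 69.2 CPM against 33.7 and 39.7 CPM (edgeR adjusted p = 0.0511), and Pparg at 19.5, 14.3 and 17.6 CPM against 10.6 and 10.5 CPM (adjusted p = 0.0541). For both genes the ethanol libraries lay above the chow libraries. Of the exon bases of Nr2f6, 54.4% overlap Ocel1 on the opposite strand, so its reads too may hold those of another gene. Ocel1 itself ran from 3.44 to 8.26 CPM over the libraries, with a log2 change of 0.12 in this comparison (edgeR adjusted p = 0.84). How much of the Nr2f6 value belongs to each gene was not tested. Esrra was at 21.6 ± 6.67 against 13.7 ± 2.65 CPM (SD, n = 3 and 2; adjusted p = 0.0997), Nr1h4 at 173 ± 32.1 against 128 ± 20.1 CPM (adjusted p = 0.135) and the immediate early receptor gene Nr4a1 at 1.64 ± 0.705 against 4.63 ± 2.50 CPM (adjusted p = 0.0942). Without library 13 Nr2f6, Esrra, Nr1h4 and Nr4a1 passed along with Nr1i3 and Nr1d1, 6 members in all, against 1691 of all genes called in that fit in place of 776. Library 13 had the highest immediate early gene sum, 787 CPM, and the Kupffer cell and macrophage marker sum was 713 to 967 CPM with ethanol against 1927 CPM in library 12 and 1155 CPM in library 5; the part of either was not tested.

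Ethanol against chow in CCl4 livers called Pparg, higher with ethanol, and no other member, against 1.25% of all genes called and 0.474% called higher. It stood at 8.82, 8.09 and 6.82 CPM in libraries 18, 19 and 20 and at 3.88 and 4.45 CPM in libraries 16 and 17. The groups did not overlap, but the call was narrow. This was a log2 change of 0.93 ± 0.20 (SE; edgeR adjusted p = 0.0463), and it was lost when any 1 of the 5 libraries was left out (adjusted p from 0.0613 to 0.353), with RLE scaling (0.0505) and in limma-voom (0.0717). Pparg was thus lower with CCl4 on both feeds and higher with ethanol in CCl4 livers, and these comparisons share libraries.

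A further 7 members had an unadjusted p under 0.05 with ethanol in CCl4 livers, as did 11.6% of all genes, and none passed. Ppard was at 2.86 ± 0.471 CPM with ethanol and 9.71 ± 5.00 CPM with chow (SD, n = 3 and 2; edgeR adjusted p = 0.119), where library 16 held 13.2 CPM and also had an immediate early gene sum of 673 CPM. Nr0b2 was at 18.7 ± 5.25 against 38.9 ± 3.50 CPM (adjusted p = 0.275) and the retinoic acid receptor gene Rara at 8.32 ± 0.215 against 15.8 ± 8.12 CPM (adjusted p = 0.397). Esrra was at 20.8 ± 1.15 against 14.4 ± 0.594 CPM (adjusted p = 0.349) and Nr1h4 at 150 ± 7.95 against 118 ± 1.73 CPM (adjusted p = 0.415). The other 2 were the clock repressor genes Nr1d1 and Nr1d2, described with the clock genes.

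**Figure D3:**
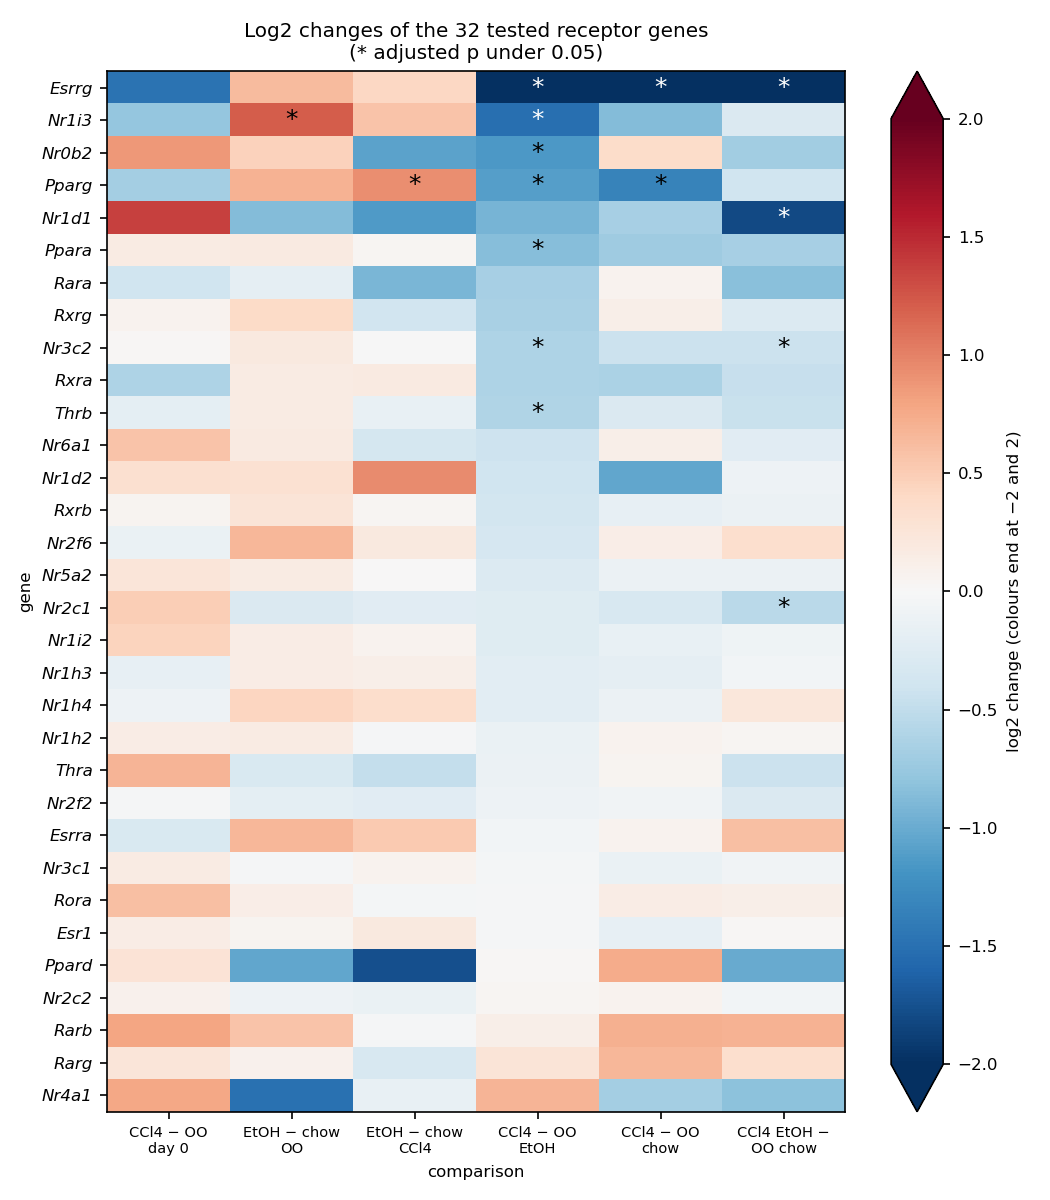
Log2 change of the 32 tested receptor genes (rows) in 6 comparisons (columns), coloured from blue (lower in the first-named group) to red (higher), with colours ending at -2 and 2 and an asterisk where the edgeR adjusted p was under 0.05. The column of CCl4 against OO under ethanol is mostly blue with 7 asterisks, that of Esrrg among them, and the day 0 column has none.

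The doubly injured livers were last set against OO chow, libraries 18, 19 and 20 against 12 and 5. It called 4 members, all lower, Esrrg, Nr1d1, Nr2c1 and Nr3c2, or 3 without Esrrg, against 10.7% of all genes called and 4.72% called lower. Esrrg had 3, 1 and 1 counts against 14 and 27, a rough ratio of 15.2. Its passing of the filter rested on its OO libraries, so no test or interval is given. Nr2c1, an orphan receptor gene at chr10:94148023-94197211, had 13.6, 15.9 and 14.8 CPM against 20.5 and 22.4 CPM, a log2 change of -0.54 ± 0.15 (SE; edgeR adjusted p = 0.0377). Nr3c2 had 19.3, 19.4 and 19.3 CPM against 24.4 and 27.6 CPM, a log2 change of -0.43 ± 0.12 (SE; adjusted p = 0.0405). Both groups were apart, and both calls were lost without library 12 (adjusted p = 0.121 and 0.0989), 5 (0.224 and 0.273), 18 (0.132 and 0.112) or 20 (0.086 and 0.0968), and that of Nr3c2 also without 19 (0.0657).

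Nr1d1, which encodes REV-ERB alpha, a haem-binding repressor within the circadian clock, is at chr11:98767932-98775333 (minus strand). It had 6.08, 7.30 and 10.3 CPM in the doubly injured livers and 25.4 and 28.8 CPM in the OO chow libraries 12 and 5, with no overlap. The log2 change was -1.80 ± 0.43 (SE; edgeR adjusted p = 0.0198), lost without library 12 (0.0612), 5 (0.121) or 18 (0.0815). The other day 20 arms held both low and high libraries of this gene, 25.6, 9.40 and 10.4 CPM in OO with ethanol and 25.1 and 9.29 CPM in CCl4 with chow. Thrb, at 34.0, 39.9 and 39.6 CPM against 48.5 and 54.2 CPM, had an adjusted p of 0.051. Esrra, higher in sign at 20.8 ± 1.15 against 13.7 ± 2.65 CPM (SD, n = 3 and 2; adjusted p = 0.101), and Ppara, at 205.9 ± 47.6 against 327 ± 143 CPM (adjusted p = 0.175), did not pass either. Of the marker lists in this comparison, 3 of 8 hepatocyte markers were lower and 0 higher. Of stellate cell and fibroblast markers 4 of 10 were higher, and of tested cholangiocyte markers 2 of 6. Exocrine pancreas markers summed to 175 CPM in library 12 and 8.65 CPM in library 5. In the doubly injured livers the sum was 5.52 to 7.76 CPM. Several, such as Pnlip and Cpb1, were at 0 in 12 libraries and highest in library 12. A difference from library 12 was therefore built in, and no call is given for these markers. The part of the marker lists in the receptor levels was not tested.

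Clock genes outside the receptor family differed between the OO chow libraries 12 and 5, which differ in day and substudy. Arntl, the activator that drives Nr1d1 and is repressed by it, was at 35.3 CPM in the OO chow library 12 and at 6.96 CPM in library 5, while Dbp, an output gene, was at 2.45 and 35.4 CPM. In CCl4 chow livers Arntl was at 42.2 and 40.8 CPM and Dbp at 1.83 and 1.93 CPM. With ethanol Arntl was at 19.8, 18.8 and 14.2 CPM in CCl4 livers and 12.6, 6.79 and 18.4 CPM in OO livers. The time of day of collection is not given in the sources used here, and its part in the levels of Nr1d1, Nr1d2 and Rora was not tested. REV-ERB beta (Nr1d2), the partner of Nr1d1, stood at 139 CPM in library 5 and 49.9 CPM in library 12, at 36.9 and 54.8 CPM in CCl4 chow livers and at 59.2, 104 and 101 CPM in CCl4 ethanol livers. Its log2 change was 0.94 for ethanol in CCl4 livers (edgeR adjusted p = 0.329) and -1.05 for CCl4 under chow (0.223), and the latter passed without library 12 (adjusted p = 0.0347). In the list of 15 other clock genes 1, Cry2, was called in CCl4 against OO under ethanol, where 24% of all genes were called. The list had 0 calls in each of the other comparisons. The call of Cry2 was lost without library 13 (0.117), 14 (0.0812), 18 (0.145) or 20 (0.112).

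**Figure D4:**
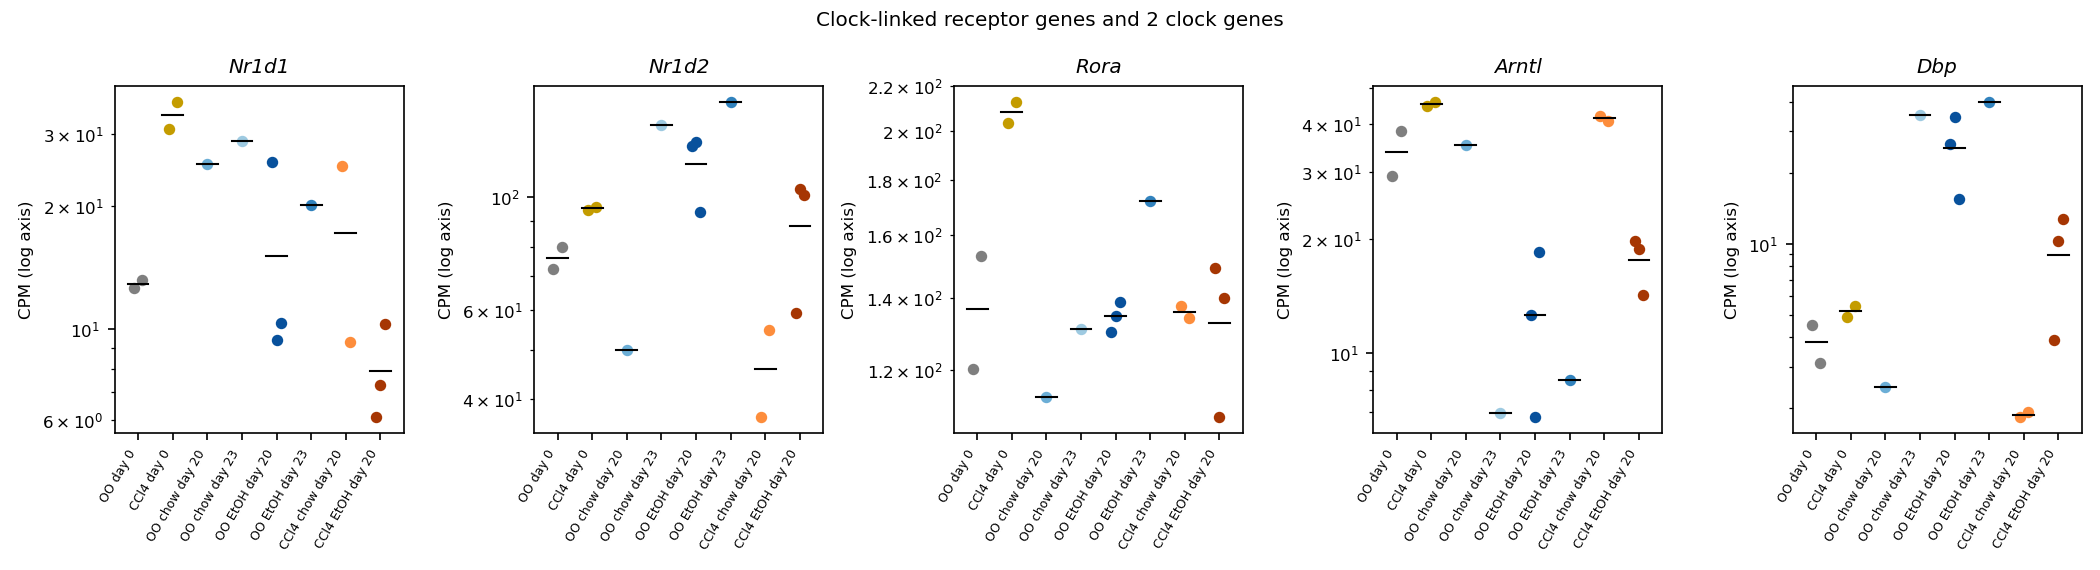
Level of the clock-linked receptor genes Nr1d1, Nr1d2 and Rora and of the clock genes Arntl and Dbp in each library, in TMM-normalised CPM on a log axis that differs between panels, with points for libraries and a bar for the group mean. The 2 OO chow libraries lie far apart in Arntl (35.3 and 6.96 CPM) and Dbp (2.45 and 35.4 CPM).

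At day 0, after the first 6 weeks of CCl4 and before ethanol, no member was called by edgeR. By edgeR 9 members had an unadjusted p under 0.05, 6 higher and 3 lower, against 16.7% of all genes, 8.59% higher and 8.14% lower. Across all genes 2.48% were called. DESeq2 called 1 member, Rora, limma-voom called 0, and edgeR on only the 4 day 0 libraries called 11 members and 2240 of all genes, where CCl4 libraries 3 and 4 were the most alike of any replicate pair. With 2 libraries in each arm, 15 members had both CCl4 libraries above and 9 both below the OO libraries, against 30.5% and 29% of all genes.

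The 6 members with higher levels at day 0 were 3 orphan receptors and 3 with ligands. Rora, an orphan receptor that activates clock and lipid genes, had 203 and 213 CPM with CCl4 and 120 and 153 CPM in OO livers, a log2 change of 0.61 ± 0.17 (SE; edgeR adjusted p = 0.081). Nr1d1 had 30.9 and 35.99 against 12.6 and 13.2 CPM (adjusted p = 0.161), the reverse of its sign at day 20, and Nr1i2, the PXR gene, had 88.9 and 83.2 against 57.9 and 68.3 CPM (adjusted p = 0.172). The groups did not overlap in any of these 3. Nr2c1 was at 26.0 ± 1.38 against 18.5 ± 1.70 CPM (SD, n = 2; adjusted p = 0.15), Nr6a1 at 32.03 ± 1.10 against 21.6 ± 0.0515 CPM (adjusted p = 0.205) and Thra at 15.2 ± 0.308 against 9.49 ± 1.90 CPM (adjusted p = 0.238). Thra and Nr1d1 lie tail to tail on opposite strands with 263 shared exon bases, 5.7% of Thra and 8.55% of Nr1d1. The 3 with lower levels were Pparg at 3.82 ± 0.792 against 6.19 ± 0.841 CPM (adjusted p = 0.14), Nr1i3 at 38.2 ± 0.88 against 65.0 ± 22.6 CPM (adjusted p = 0.194) and Rxra at 259.3 ± 14.3 against 399.8 ± 27.0 CPM (SD, n = 2 each; adjusted p = 0.26).

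Esrrg at day 0 had 5 and 1 counts with CCl4 and 6 and 9 without, a rough ratio of 2.78, and it was not called. Acute-phase genes, the plasma proteins of inflammation, moved in the same comparison. Of 20 such genes 13 were lower with CCl4, where 2.48% of all genes were called in either direction. Their sum was 43960 and 43504 CPM in libraries 3 and 4 against 126395 and 80736 CPM in libraries 1 and 2. The count was 8, 11, 4 and 3 without library 1, 2, 3 and 4. Its part in the receptor levels was not tested.

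The other 9 tested members had no unadjusted p under 0.05 in any comparison: Esr1, the LXR genes Nr1h2 and Nr1h3, the glucocorticoid receptor gene Nr3c1, the orphan receptor genes Nr2c2, Nr2f2 and Nr5a2, and the retinoid receptor genes Rarb and Rxrg. The log2 changes of Nr3c1 lay between -0.13 and 0.16 and those of Esr1 between -0.16 and 0.19 over the 7 comparisons. Rarb, with -0.60 to 0.79, and Rxrg, with -0.77 to 0.38, ranged more widely without passing. A p above the threshold does not show that these receptors were equal between groups.

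The receptors' own targets, in lists written from general knowledge with earlier results of these data known, were counted for each ligand class. In the list of 17 CAR and PXR targets, the enzymes and pumps of drug clearance, 14 were higher with ethanol in OO livers, where 3.06% of all genes were called higher. Without library 12 the count was 8 of 17, and without any other library of these arms it was 10 to 13. Cyp2b10, a P450 gene that CAR induces, was at 991, 1449 and 839 CPM with ethanol and at 4.27 and 4.81 CPM with chow (edgeR adjusted p = 7.5e-06, and 0.0004 without library 12). In CCl4 livers 5 of 17 were higher with ethanol, against 0.474% of all genes called higher. Cyp2b10 was among them at 799, 569 and 1102 CPM against 18.7 and 10.3 CPM (edgeR adjusted p = 2.6e-05). So was the P450 gene Cyp2c29, at 5557 ± 988 against 299 ± 28.7 CPM (SD, n = 3 and 2). Since reads with several matching places were left out of the counts, single members of these P450 families have uncertain values.

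CCl4 against OO under ethanol, the contrast in which Nr1i3 fell, had 9 of the 17 drug clearance genes lower and 0 higher, against 11.3% and 12.7% of all genes. The lower ones included the efflux pump gene Abcc4, at 14.9, 17.0 and 21.7 CPM against 120, 116 and 84.5 CPM, and the P450 gene Cyp2a5, at 31.8 ± 18.6 against 3171 ± 363 CPM (SD, n = 3). Cyp2b10, at 823 ± 268 against 1093 ± 318 CPM (SD, n = 3), was not among them. For 3 of the 17 the interaction was called, against 0.115% of all genes, with a lower CCl4 log2 change under ethanol than under chow. The differences were -3.08 ± 0.29 for Abcc4, -4.79 ± 0.65 for Cyp2a5 and -5.81 ± 0.76 for the glutathione transferase gene Gsta1 (SE; edgeR adjusted p = 0.00097, 0.011 and 0.011). Under chow Abcc4 was not lower with CCl4, at 14.3 and 10.6 CPM against 9.48 CPM in library 12 and 8.19 CPM in library 5. Without library 12 Abcc4 was still called (adjusted p = 0.0098), while Cyp2a5 (0.068) and Gsta1 (0.056) were not. The calls of these 2 were also lost without library 5 (0.071 and 0.072) or 17 (0.072 for each). The list was not mainly lower in the other CCl4 comparisons, in which Nr1i3 was not called. For CCl4 under chow 3 of the 17 were higher and 1 lower, against 1.48% of all genes called in either direction. At day 0 also 3 were higher and 1 lower, against 2.48%. In doubly injured livers against OO chow 11 were higher and 1 lower, against 10.7%. CAR is regulated by movement into the nucleus as well as by its amount, and neither its protein nor its location was measured.

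**Figure D5:**
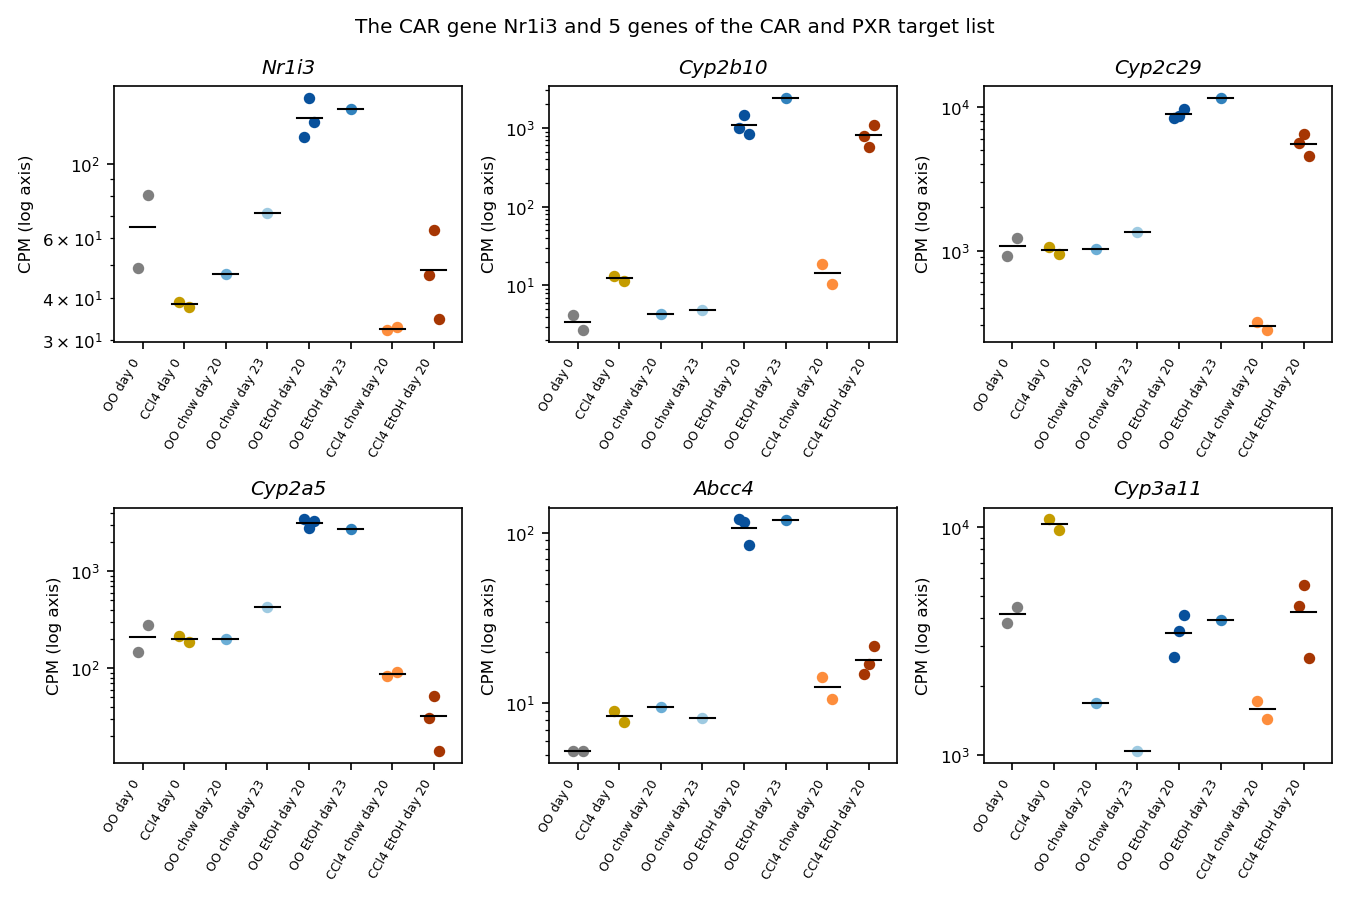
Level of the CAR gene Nr1i3 and of 5 genes of the CAR and PXR target list in each library, in TMM-normalised CPM on a log axis that differs between panels, with points for libraries and a bar for the group mean. Cyp2b10 and Cyp2c29 are high in all ethanol groups, while Nr1i3, Cyp2a5 and Abcc4 reach their highest values in the OO ethanol groups.

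Targets of PPAR alpha, genes of fat oxidation, were called in OO livers given ethanol, where 7 of 16 were higher and 0 lower. Across all genes 3.06% were called higher there, and Ppara itself was not called. Among the higher targets was the fatty acid hydroxylase gene Cyp4a14, at 192, 284 and 99.1 CPM against 6.01 and 10.7 CPM (edgeR adjusted p = 0.0099). Without library 12 the count was 0 of 16, and Cyp4a14 had an adjusted p of 0.124. The count was 2 without library 5, 6 without 13, 4 without 14 and 3 without 15. In CCl4 against OO under ethanol 6 of 16 were lower and 0 higher, against 11.3% and 12.7% of all genes. Among the lower was the carnitine transferase gene Cpt2, with a log2 change of -0.73 ± 0.14 (SE; edgeR adjusted p = 0.0029). The count of lower targets was 3 without library 18 and 4 to 7 without any other. The CCl4 contrast under chow called 0 of 16, against 1.48% of all genes.

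LXR targets split by gene. The sterol exporter genes Abcg5 and Abcg8 were lower in CCl4 ethanol livers than in OO ethanol livers, Abcg8 at 11.3, 22.1 and 21.0 against 138, 129 and 126 CPM and Abcg5 at 18.5, 28.7 and 30.1 against 93.9, 102 and 108 CPM. Other LXR targets went up in the same contrast, Abcg1 by 1.09 ± 0.18 and Pltp by 0.82 ± 0.18 on the log2 scale (SE; edgeR adjusted p = 0.0013 and 0.0051). Of the 10 targets 3 were higher and 2 lower, against 12.7% and 11.3% of all genes. At day 0 the sign of the exporters was the reverse: Abcg8 stood at 139 and 148 CPM with CCl4 and 55.2 and 49.3 CPM in OO livers (adjusted p = 0.0086), a call lost when any 1 of the 4 libraries was left out (adjusted p from 0.0633 to 0.0859). Neither LXR gene, Nr1h3 nor Nr1h2, was called in any comparison, with log2 changes between -0.21 and 0.17.

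Targets of FXR and SHP gave 1 of 9 higher and 3 lower in CCl4 against OO under ethanol, where 12.7% of all genes were called higher and 11.3% lower. The bile acid hydroxylase gene Cyp8b1 was lower, at 56.7, 88.5 and 22.6 CPM against 283, 375 and 324 CPM (edgeR adjusted p = 0.00071), and the bile acid uptake gene Slc10a1 was lower by 0.69 ± 0.18 on the log2 scale (SE; adjusted p = 0.015, and 0.0511 without library 18). The count of lower genes was 1 without library 18 and 2 or 3 without any other. Cyp7a1, named for its role although not called, encodes the rate-limiting enzyme of bile acid synthesis and is repressed by SHP. It was at 271, 140 and 39.7 CPM against 11.9, 153 and 66.2 CPM, with wide overlap. Of 6 tested retinoic acid targets 1 was higher and 4 lower in that contrast, with the retinoic acid hydroxylase gene Cyp26b1 lower, at a log2 change of -1.80 ± 0.50 (SE; edgeR adjusted p = 0.02). The call of Cyp26b1 was lost without library 14 (0.106), 18 (0.0868) or 19 (0.0573), and 2 were lower without library 14 or 18. Of 6 thyroid hormone targets 1 was lower, the malic enzyme gene Me1 (3 without library 14), and of 9 glucocorticoid targets 0 were called. In doubly injured livers against OO chow 4 of these 9 were lower and 0 higher, against 4.72% of all genes called lower. With ethanol 1 of the 9 was lower in OO livers and 1 in CCl4 livers. Across all genes 5.25% and 1.25% were called there in either direction.

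Receptor genes outside the 36 and the coregulators gave few calls. Of 12 further nuclear receptor genes 5 were tested. Hnf4a, the receptor that maintains hepatocyte identity, was not called and stood at 420, 481 and 537 CPM with CCl4 and 761, 562 and 589 CPM without under ethanol (edgeR adjusted p = 0.0558). Of 14 coregulator genes, which encode the proteins that receptors recruit, 1 was called at day 0, Ppargc1a, higher with CCl4 at 13.3 and 15.6 against 6.70 and 8.86 CPM (adjusted p = 0.0394, lost without any 1 of the 4 libraries), and 1 in doubly injured livers against OO chow, Ppargc1b, lower by 1.29 ± 0.34 on the log2 scale (SE; adjusted p = 0.032), kept without library 12 (0.0378) and lost without 5 (0.295), 18 (0.12) or 20 (0.0726). Across all genes 2.48% were called at day 0 and 10.7% in doubly injured livers against OO chow. In each of the other comparisons the coregulator list had 0 calls.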

How the data were processed

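Per the labels' protocols, total RNA of whole liver was sequenced with the TruSeq mRNA kit of Illumina. The authors deposited 1 table of raw read counts per library. Reads were aligned to mm10 with GSNAP and DESeq2 1.12.3 was used, per the submitters' processing notes; for the counting program, annotation and strand setting nothing is given in the sources used here. The 5 rows naming no gene were left out, and genes held 41.4% to 53.0% of the reads listed. Reads in several places were not assigned (18.1% to 28.8% of reads listed), which lowers genes with close copies.

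Deposited counts of 14778 genes kept by filterByExpr were fitted with edgeR 4.0.16 (R 4.3.3), TMM scaling and the quasi-likelihood test over 7 arms and 15 libraries, with Benjamini-Hochberg adjustment over all 14778 genes. The OO chow libraries of day 20 and day 23 formed 1 arm, and library 6 was in no comparison. The fit had 8 residual degrees of freedom. Levels per kilobase and shared exon bases used GENCODE M21 exon lengths. The scripts were tested on simulated data. Members and lists were chosen with earlier results of these data known. Named were all members called, all with an unadjusted p under 0.05 and all that missed the filter, and from other lists up to 4 called genes per comparison; Arntl, Dbp, Tomm40l, Cyp7a1, Hnf4a, Cyp2b10, Cyp2c29 and Cyp4a14 are also named where they fall outside this rule, having been chosen after their values were seen. Alternatives were RLE scaling, other filters, DESeq2 1.42.0, limma-voom (limma 3.58.1) with and without the sequencing lane as a block, other chow controls, library 6 added, compared arms only, and each library left out.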

Additional observations from a re-analysis of the deposited data

Results flagged for a closer look

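The CCl4 change of 3 members differed between the day 20 ethanol arms and day 0, in a test of that difference chosen after the data were seen (edgeR's quasi-likelihood test, adjusted over all genes). The CCl4 log2 change under ethanol minus that at day 0 was -2.03 ± 0.54 for Nr0b2 (SE; adjusted p = 0.0401), -2.31 ± 0.63 for Nr1d1 (adjusted p = 0.0424) and -0.63 ± 0.17 for Nr3c2 (adjusted p = 0.0417). Across all genes 8.09% were called in this test, so 3 of the 32 tested members is near the share of all genes. The test was not repeated without single libraries. The contrast spans day, feeding and the second CCl4 phase together, and these cannot be told apart. For the CCl4 change under chow minus that at day 0, edgeR called 0 members and 0.338% of all genes.

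Library 6, the day 23 OO ethanol library, entered no comparison. Nr1i3 stood at 145.7 CPM there, above the OO chow libraries at 71.3 CPM (library 5, of the same day) and 47.1 CPM (library 12). The group has 1 library, so the difference was not tested. No group had the 4 libraries needed to look for a single library apart from the rest of its group.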

How the results depend on the processing

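Of the member values recomputed under the alternatives, 602 kept their direction and side of the threshold, 61 lost a call, 34 gained one and 0 reversed. Esrrg is counted among these values and in the calls below. No paired analysis was possible because the labels give each library its own number and the groups share none. Members called, in place of 0 at day 0, 1 for ethanol in OO livers, 1 for ethanol in CCl4 livers, 7 for CCl4 under ethanol and 2 under chow, and 4 for doubly injured livers against OO chow, were as follows where they moved. RLE scaling gave 2 for ethanol in OO and 0 for ethanol in CCl4 livers. No filter gave 2 for ethanol in OO and 2 for doubly injured livers, and a filter of 1 CPM in 2 libraries gave 5 for the latter. DESeq2 gave 1 at day 0, 3 for ethanol in OO, 2 for ethanol in CCl4 livers, 8 for CCl4 under ethanol and 5 for doubly injured livers. Limma-voom gave 0 for ethanol in CCl4 livers and 1 for CCl4 under chow, and with the lane as a block 2 for ethanol in OO, 0 for ethanol in CCl4 livers and 1 for CCl4 under chow. The day 20 chow library alone gave 0 for CCl4 under chow and 1 for doubly injured livers, and the day 23 chow library alone gave 0 for ethanol in OO, 3 for CCl4 under chow and 1 for doubly injured livers. Adding library 6 gave 4 for ethanol in OO and 11 for CCl4 under ethanol. Only the compared arms gave 11 at day 0, 0 for ethanol in OO, 0 for ethanol in CCl4 livers, 6 for CCl4 under ethanol, 1 under chow and 3 for doubly injured livers. Without libraries 6 and 12, added after seeing the data, the numbers were 0, 0, 3 and 1 for ethanol in OO and in CCl4 livers, CCl4 under chow and doubly injured livers. Leaving out 1 library gave 0 to 0 at day 0, 0 to 6 and 0 to 0 for ethanol in OO and CCl4 livers, 5 to 10 and 0 to 3 for CCl4 under ethanol and chow, 1 to 3 for doubly injured livers and 0 to 0 for the interaction. The cause of these moves was not tested.

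All-gene calls moved by over 1.5 times as follows. DESeq2 gave 778 (396 higher, 382 lower) against 367 at day 0 and 1315 against 776 for ethanol in OO livers. It gave 390 (189 higher, 201 lower) against 185 for ethanol in CCl4 livers, 573 against 219 for CCl4 under chow and 125 against 17 for the interaction. No filter gave 365 for CCl4 under chow and 32 for the interaction, and the lane block gave 138 for CCl4 under chow. The day 20 chow library alone gave 28 for CCl4 under chow, 414 against 1576 for doubly injured livers and 2 for the interaction. The day 23 chow library alone gave 94 for ethanol in OO, 361 for CCl4 under chow and 994 for doubly injured livers. Only the compared arms gave 2240 at day 0, 73 and 99 for ethanol in OO and CCl4 livers, 2319 against 3546 for CCl4 under ethanol and 4 for the interaction. Without libraries 6 and 12 the numbers were 94 for ethanol in OO, 358 for CCl4 under chow, 1004 for doubly injured livers and 10 for the interaction. Leaving out 1 library gave 52 to 134 at day 0, 93 to 1691 for ethanol in OO (93 without 12, 340 without 14, 243 without 15, 1691 without 13) and 55 to 147 for ethanol in CCl4 livers (55 without 16, 56 without 17, 99 without 20). It gave 2269 to 3862 for CCl4 under ethanol (2269 without 18), 19 to 362 under chow (28 without 5, 19 without 17, 362 without 12), 403 to 1735 for doubly injured livers (403 without 5, 846 without 18, 1001 without 12, 1036 without 20) and 2 to 51 for the interaction (2 without 5 or 17, 9 without 16, 10 without 12, 51 without 19). Depth limits Esrrg, Vdr, Nr2f1, Nr4a2 and Nr4a3, whose counts are too low in some or all libraries to show a moderate difference.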
